A study of Equus caballus with 4 samples.

Results

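Caspases and the proteins that switch them on or off were followed through 18 probes for 8 genes on a horse microarray: CASP2, CASP6, CASP8, CASP9, APAF1, CFLAR, XIAP and DIABLO. The probes were those annotated with exactly 1 of these gene symbols, out of 43603 gene probes carrying 24998 gene names. The cells were equine satellite cells, the stem cells of skeletal muscle, cultured from the semitendinosus muscle of young stallions and taken on day 3 of differentiation. The study's methods describe the choice of a single primary line from those isolated. The 4 replicates thus stand for cultures and not for a sample of horses, and the p-values measure the spread between these cultures only. In the treated group the medium held 0.125 µM gamma-oryzanol (GO, plant sterol ferulates from rice bran) for 24 h, with 3 mM hydrogen peroxide (H2O2) added for the final 1 h. The control group had no GO; its labels are silent on H2O2, whereas the study describes controls that were exposed to it, and the DMSO vehicle was in both media. Each of the 4 arrays held treated RNA labelled with Cy5 (red) and control RNA labelled with Cy3 (green), with no dye swap, so that an effect of the dye and an effect of the treatment cannot be told apart.

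Caspases are proteases that are made as inactive precursors and become active when they are brought together or cut. Initiator caspases start the process: caspase-8 at death receptors, caspase-9 on the apoptosome (a wheel of APAF1 assembled around cytochrome c released from mitochondria), and caspase-2 on its own platform. Executioner caspases, among them caspase-6, then cut the proteins of the cell. CFLAR, also called FLIP, competes with caspase-8, XIAP binds and blocks active caspases, and DIABLO, also called SMAC, leaves the mitochondria and frees caspases from XIAP. In myoblasts, caspase activity belongs both to cell death and to normal differentiation. The arrays measured transcripts, not the cutting of the precursors. In bulk RNA, fewer cells of a type and less RNA per cell cannot be told apart.

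The sequences of 6 probes are shown. The results turn on those of CASP8, CASP9 and CASP6, while the CFLAR probe was not tested. All 6 are 60 bases, printed 5′ to 3′ as the array's files give them, in the sense direction of the transcript. Positions are those of the files, in the EquCab1 build, and a probe is named by the base of the transcript at which it starts. The first pair lies end to end on CASP8 without a shared base, on the unplaced sequence Un at chrUn:98746098-98746157 and chrUn:98746158-98746217, and the capitals mark a stop triplet at the end of the later one, in a frame that is open through both probes.
CASP8 1452: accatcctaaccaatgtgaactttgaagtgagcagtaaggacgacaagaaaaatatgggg
CASP8 1512: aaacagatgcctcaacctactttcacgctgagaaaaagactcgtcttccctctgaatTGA

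The next pair is the first and the last of 5 CASP9 probes that step along chr2:35477720-35477783 by 1 base each, and the capitals mark the 56 bases that all 5 share.
CASP9 1275: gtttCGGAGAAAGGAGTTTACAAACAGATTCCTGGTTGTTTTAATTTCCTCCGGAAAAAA
CASP9 1279: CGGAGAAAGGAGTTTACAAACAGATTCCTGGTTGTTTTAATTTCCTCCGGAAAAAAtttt

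The last pair holds the single probes of CASP6, at chr2:101492727-101495416, and of CFLAR, at chrUn:301782010-301782069. The bases of the CASP6 probe are spread over 2690 bases of the genome, so it crosses at least 1 intron.
CASP6 389: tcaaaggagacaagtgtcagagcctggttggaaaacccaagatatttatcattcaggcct
CFLAR 1068: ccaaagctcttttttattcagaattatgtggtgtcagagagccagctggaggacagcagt

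The other probes lay on chromosome 4 (CASP2, 1 probe, also split in the genome), chromosome 28 (APAF1, 2 probes), Un (XIAP, 2 adjoining probes) and chromosome 8 (DIABLO, 4 probes sharing 55 bases). No probe of another gene on the array held 20 bases in a row of any member probe (0 for each of the 18). Whether a probe lies in an exon's coding part or in a UTR is not given in the sources used here.

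Of the 8 genes, CASP6 and CASP8 had a probe that was lower in treated than in control cells by the test, and no member probe was higher by it. CASP6, an executioner caspase known for cutting nuclear lamins, fell to 0.880 of the control level, and CASP8, by its later probe only, fell to 0.892. The 5 CASP9, 2 APAF1, 2 XIAP and 4 DIABLO probes and the earlier CASP8 probe did not pass the test. CASP2 and CFLAR were not well above background on most or all arrays and were not tested. Thus 2 of 16 tested probes (12.5%) passed at an adjusted p of 0.05 (limma, Benjamini-Hochberg over 24230 probes), beside 17.1% of all probes tested. Both were lower, beside 7.59% of all probes. With a further limit of a 1.3 fold change, 0 member probes passed, beside 1.42% of all probes. The share of members called was thus not above that of the array. Without any 1 of the 4 arrays, 0 member probes passed the adjusted threshold (limma), with 2 at an unadjusted p under 0.05 each time; of all probes, 0.00825%, 16.1%, 0.157% and 0% then passed without arrays 1 to 4, so that only the omission of array 2 left calls across the array to compare with.

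**Figure D1:**
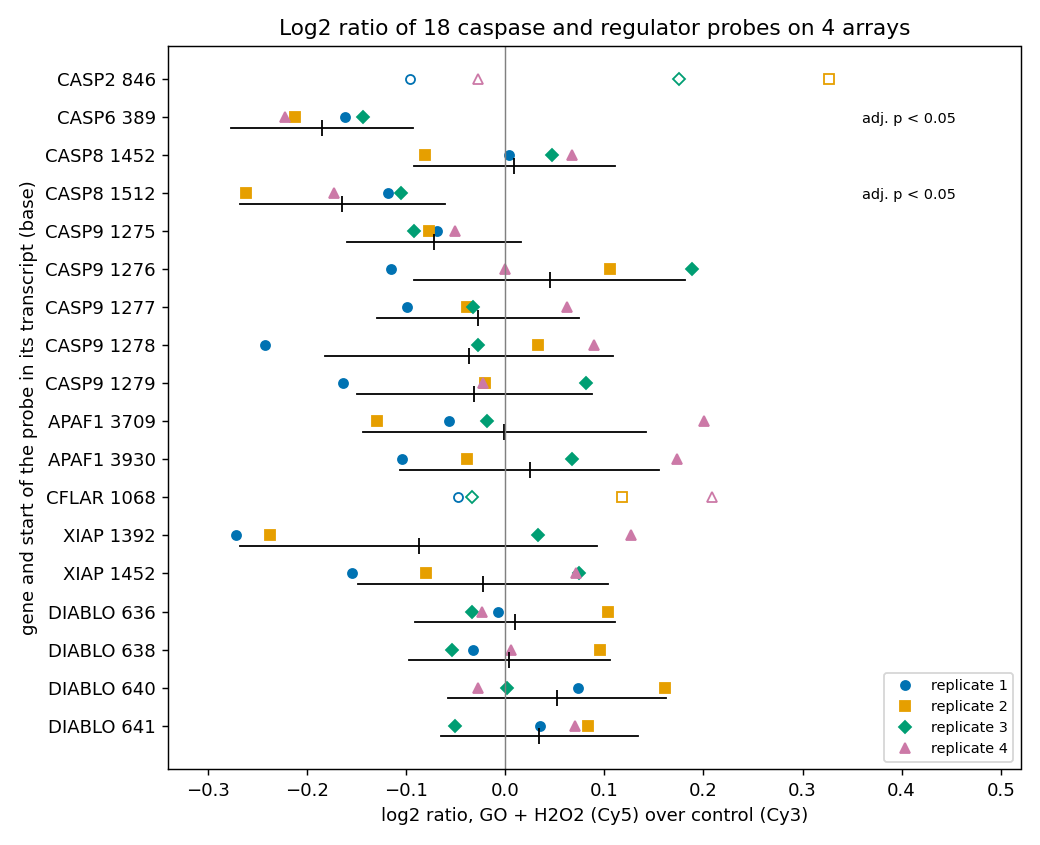
Log2 ratio of GO and H2O2 over control (horizontal axis) for each of the 18 probes (rows, named by gene and first transcript base). Coloured symbols are the 4 arrays, open where the probe was not tested, and the black line below them is limma's 95% interval with a tick at the mean. The symbols of CASP6 389, CASP8 1512 and CASP9 1275 all lie left of 0, while those of the other probes fall on both sides.

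CASP6, the executioner among the members, had the lowest mean ratio of the 16 tested probes. Its normalised signal in treated cells was 364, 282, 273 and 286 on arrays 1 to 4, against 408, 327, 301 and 334 in control cells. The treated signal was the lower of the pair on every array. Across arrays the 2 groups overlapped, as for every member probe, with control signals spanning 1.35-fold. Signals were normalised within arrays only, so the test compares the pair on each array. The log2 ratios were -0.16, -0.21, -0.14 and -0.22, a mean of -0.19 ± 0.04 (SD, n = 4; limma adjusted p = 0.0288). The 95% interval of the difference ran from -17.5% to -6.25%.

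CASP8, the initiator at death receptors, was read differently by its 2 adjoining probes. At the later probe, CASP8 1512, the treated signals were 188, 132, 143 and 122 and the control signals 204, 158, 153 and 138. The log2 ratios were -0.12, -0.26, -0.11 and -0.17, with a mean of -0.16 ± 0.07 (SD, n = 4; limma adjusted p = 0.0466). This probe was lower in treated cells on all 4 arrays, just inside the threshold. At the earlier probe, CASP8 1452, the treated signals were 161, 101, 123 and 111 and the control signals 160, 107, 119 and 106. Its log2 ratios of 0.0035, -0.081, 0.048 and 0.067 fell on both sides of 0, with a mean of 0.0093 ± 0.066 (SD, n = 4; limma adjusted p = 0.893) and a 95% interval from -6.2% to 7.99%.

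Taken as a difference on the same array, the later CASP8 probe lay below the earlier one by -0.12, -0.18, -0.15 and -0.24 on the log2 scale, a mean of -0.17 ± 0.05 (SD, n = 4). It was lower on 4 of 4 arrays, and an exact sign-flip permutation test, two-sided, gave p = 0.125, which is the smallest that 4 arrays allow, and 0.375 after Benjamini-Hochberg adjustment over 3 such pairs. When both probes were averaged into 1 value per array, CASP8 had log2 ratios of -0.058, -0.17, -0.029 and -0.053 and did not pass (mean -0.078 ± 0.064, limma adjusted p = 0.209 over 13692 gene names). The call on CASP8 therefore rested on 1 of its 2 probes.

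**Figure D2:**
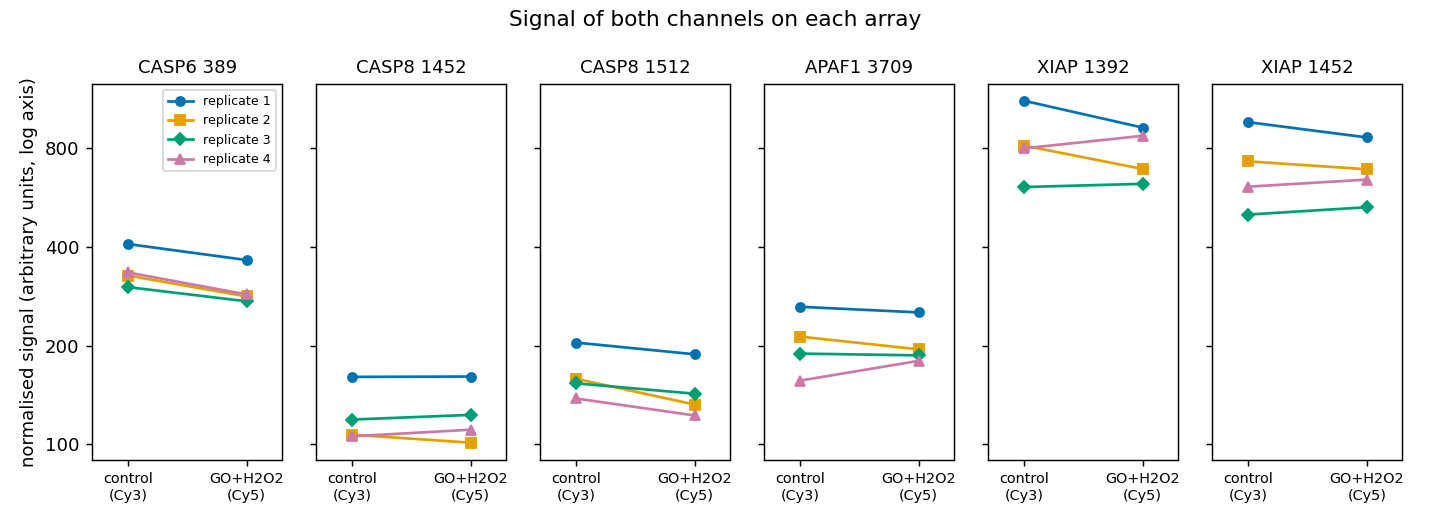
Normalised signal (arbitrary units, log axis) in the control channel (Cy3, left) and the treated channel (Cy5, right) of the same array, joined by a line, for 6 probes. The 4 lines slope down for CASP6 389 and CASP8 1512, and the lines of replicates 1 and 2 slope down while those of 3 and 4 slope up for both XIAP probes.

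The single probe of CASP2, the initiator of its own platform, was well above background on 1 of 4 arrays in each channel. Its treated signals were 148, 101, 111 and 97.2 and its control signals 158, 80.4, 98.3 and 99.1, with log2 ratios of -0.097, 0.33, 0.17 and -0.027. The ratios took both signs, with an SD of 0.19 over the 4 arrays, and the probe did not pass the filter for testing.

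CASP9, the initiator of the mitochondrial route, had 5 probes that differ by a shift of 1 to 4 bases and so read nearly the same stretch. CASP9 1275 had treated signals of 198, 148, 157 and 144 and control signals of 208, 156, 167 and 150, with log2 ratios of -0.068, -0.077, -0.092 and -0.051. These ratios were all slightly below 0 and lay close together, with a mean of -0.072 ± 0.017 (SD, n = 4; limma adjusted p = 0.203). CASP9 1276 had treated signals of 162, 117, 140 and 127 and control signals of 176, 109, 123 and 127, with log2 ratios of -0.12, 0.11, 0.19 and 0.00022. A shift of a single base thus went with ratios of either sign. The treated signals of CASP9 1277 were 195, 141, 145 and 133 and the control signals 209, 145, 148 and 128, which gave log2 ratios of -0.10, -0.039, -0.033 and 0.062. For CASP9 1278 the treated signals of 163, 118, 125 and 133 and the control signals of 193, 116, 127 and 125 gave log2 ratios of -0.24, 0.034, -0.028 and 0.090. CASP9 1279 had treated signals of 159, 114, 132 and 118, control signals of 178, 115, 124 and 120, and log2 ratios of -0.16, -0.021, 0.082 and -0.023. The means of the last 4 probes ran from -0.037 to 0.045, and their adjusted p from 0.602 to 0.691 (limma).

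All 5 CASP9 probes were below 0 on array 1, where they ranged from -0.24 to -0.068, and they took both signs on each of the other arrays. On 1 array the highest and the lowest of the 5 differed by 0.17, 0.18, 0.28 and 0.14 on the log2 scale. These are spans over 5 probes and do not compare directly with the difference of the 2 CASP8 probes.

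APAF1, the scaffold on which caspase-9 is activated, had log2 ratios of both signs by each of its probes. APAF1 3709 had treated signals of 252, 195, 187 and 180 and control signals of 262, 213, 189 and 156, with log2 ratios of -0.057, -0.13, -0.018 and 0.20 (mean -0.00082 ± 0.14, SD, n = 4; limma adjusted p = 0.993). APAF1 3930, which in the control channel stood well above background on 3 of 4 arrays, had treated signals of 162, 122, 128 and 108 and control signals of 174, 125, 122 and 96.0. Its log2 ratios were -0.10, -0.039, 0.068 and 0.17 (mean 0.025 ± 0.12; limma adjusted p = 0.774). Both probes were lower in treated cells on arrays 1 and 2 and higher on array 4, and array 3 divided them. The 95% intervals ran from -9.48% to 10.3% for APAF1 3709 and from -7.09% to 11.4% for APAF1 3930, and so held changes of either sign. The smallest change that the arrays could detect was not tested. The later probe differed from the earlier by 0.025 ± 0.073 (mean of the 4 arrays; exact sign-flip permutation test p = 0.5, adjusted p = 0.5).

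Among the inhibitors, CFLAR was not well above background on any array in either channel (0 of 4 in each). Its treated signals were 108, 74.6, 87.6 and 69.5 and its control signals 112, 68.7, 89.7 and 60.1. The log2 ratios of -0.048, 0.12, -0.033 and 0.21 therefore carry no order. The deposited log ratio of this probe was 0 on each of the 4 arrays.

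XIAP, the direct inhibitor of active caspases, split the arrays into pairs. XIAP 1392 had treated signals of 922, 690, 622 and 871 and control signals of 1113, 813, 608 and 797, with log2 ratios of -0.27, -0.24, 0.033 and 0.13. XIAP 1452 had treated signals of 861, 688, 528 and 640 and control signals of 958, 728, 501 and 609, with log2 ratios of -0.15, -0.080, 0.074 and 0.072. By both probes XIAP was lower in treated cells on arrays 1 and 2 and higher on arrays 3 and 4. The means were -0.087 ± 0.20 (limma adjusted p = 0.435) and -0.022 ± 0.11 (limma adjusted p = 0.788), with 95% intervals from -16.9% to 6.65% and from -9.76% to 7.45%. The 2 probes share no base, and the later differed from the earlier by 0.065 ± 0.094 (exact sign-flip permutation test p = 0.375, adjusted p = 0.5). Control signals of XIAP 1392 spanned 1.83-fold between arrays, more than treated and control differed on any array. These signals were not normalised between arrays.

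DIABLO, which frees caspases from XIAP, had 4 probes sharing 55 bases, and these spanned less than the CASP9 probes on each array, a difference that was not tested. A span over 4 probes does not compare directly with a span over 5, and the CASP9 probes were dimmer. DIABLO 636 had treated signals of 736, 687, 496 and 477 and control signals of 739, 639, 507 and 485, with log2 ratios of -0.0076, 0.10, -0.034 and -0.024. DIABLO 638 had treated signals of 521, 454, 381 and 401 and control signals of 533, 425, 395 and 399, with log2 ratios of -0.033, 0.096, -0.054 and 0.0063. The pair of probes nearest the start of the transcript were thus above 0 mainly on array 2. For DIABLO 640 the treated signals of 604, 535, 463 and 443 and the control signals of 574, 479, 463 and 451 gave log2 ratios of 0.074, 0.16, 0.0015 and -0.028. For DIABLO 641 the treated signals of 506, 447, 379 and 434 and the control signals of 494, 422, 392 and 413 gave log2 ratios of 0.035, 0.084, -0.051 and 0.070. All 4 probes were above 0 on array 2, between 0.084 and 0.16, and the other arrays held both signs. The means ran from 0.0040 to 0.052, with limma adjusted p from 0.445 to 0.954, and the widest 95% limits over the 4 probes were -6.54% and 11.9%. Within an array the 4 probes spanned 0.11, 0.078, 0.055 and 0.098.

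**Figure D3:**
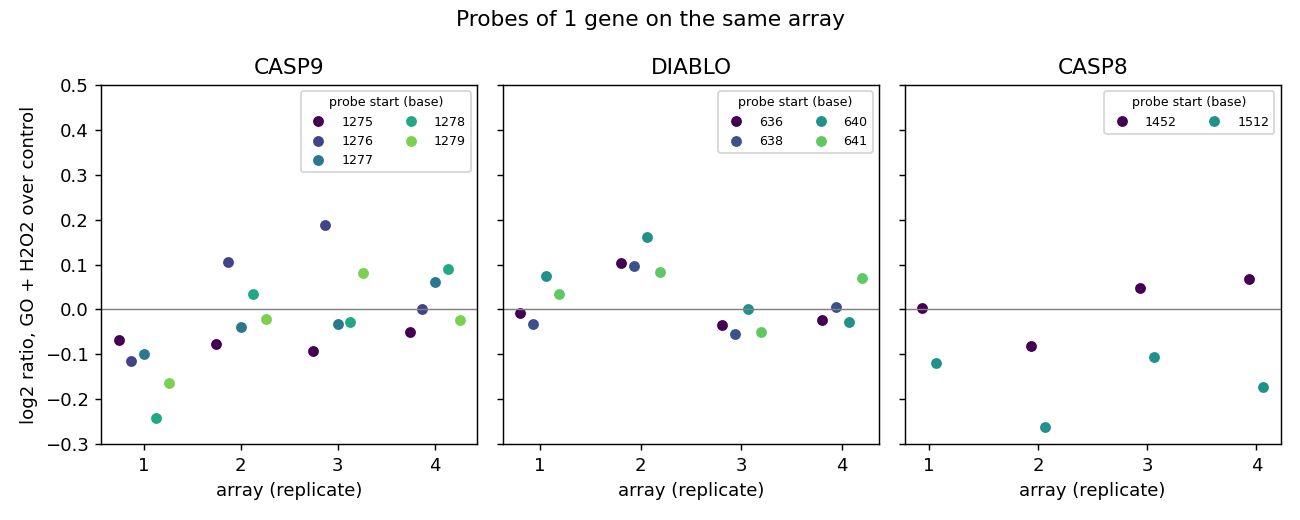
Log2 ratio of GO and H2O2 over control (vertical axis) of each probe of CASP9, DIABLO and CASP8 on each array (horizontal axis), with colours for the probe's first transcript base. The 5 CASP9 probes spread over 0.14 to 0.28 within an array and the 4 DIABLO probes over 0.055 to 0.11, and CASP8 1512 lies below CASP8 1452 on all 4 arrays.

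As a group, the 16 tested probes had small ratios. Among them, 5 CASP9 probes share 56 bases and 4 DIABLO probes share 55, so the 16 are not independent. The values over probes therefore weigh CASP9 and DIABLO most. With the mean over the probes of a gene, the median log2 ratio of the 6 genes was -0.040. Of these genes 1 of 6 (16.7%) then passed, beside 17.4% of 13692 gene names (limma). The median log2 ratio of the 16 probes was -0.012, beside 0.0030 over all 24230 probes, and 9 of 16 were below 0. The median size of a ratio, whatever its sign, was 0.033 for the members and 0.092 for all probes. It was 0.056 and 0.12 with Agilent's processed signals, which hold no added offset, so the members were the smaller on both scales. Replicates of a member spread by a median SD of 0.078, beside 0.093 for all probes. Only 3 of 16 member probes (CASP6 389, CASP8 1512 and CASP9 1275) had the same sign on all 4 arrays, beside 43.8% of all probes tested. Array by array, 13, 10, 9 and 6 of the 16 were below 0, with medians of -0.10, -0.039, -0.023 and 0.034, so array 1 held the lowest member ratios. The medians of all probes on these arrays lay between -0.010 and 0.0074. Pearson correlations of the ratios between arrays over all tested probes, which are not independent replicates, ran from 0.17 to 0.70.

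The call on CASP6 and CASP8 also depended on how the arrays were processed. Both means stayed below 0 under each alternative tried, from -0.23 to -0.14 for CASP6 and from -0.27 to -0.11 for CASP8 1512. At an adjusted p of 0.05, CASP6 passed in 10 of 17 alternatives that gave one and CASP8 1512 in 6 of 16, which leaves out the mean of both CASP8 probes. The methods' t-test was passed by both before Benjamini-Hochberg adjustment, as by CASP9 1275, and by neither after it. Scaling each array to its median in place of loess, which left 12 probes of the whole array past the threshold, ended both calls.

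**Figure D4:**
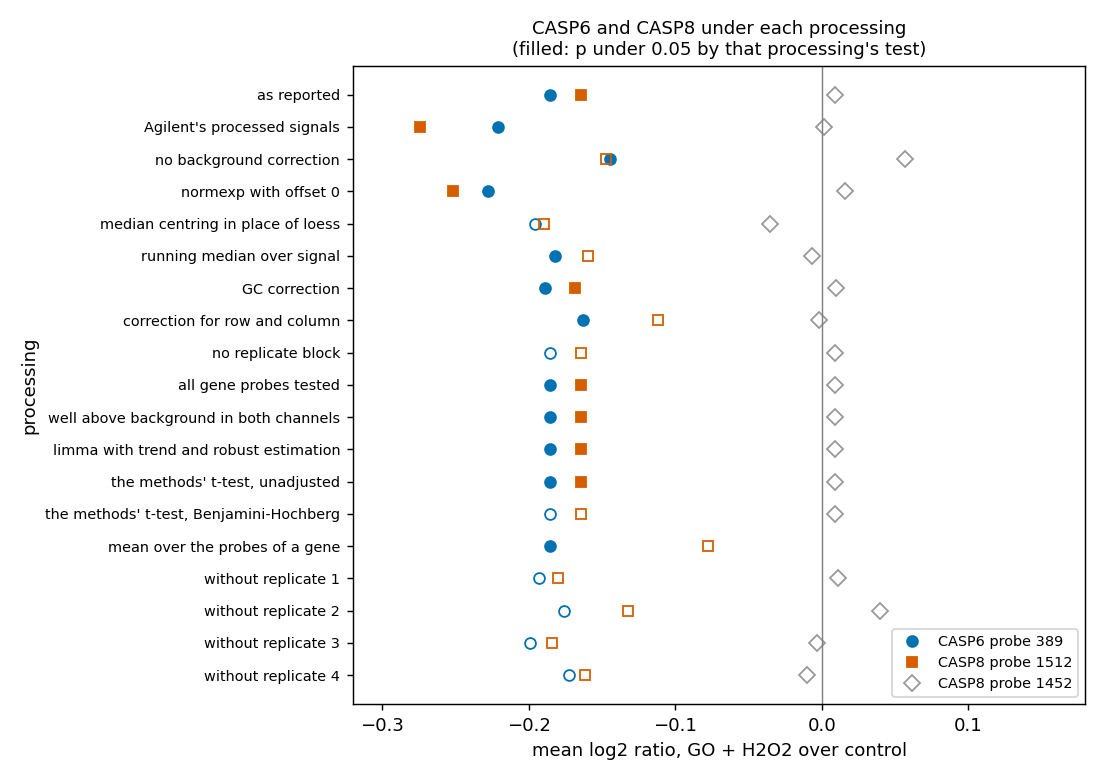
Mean log2 ratio of GO and H2O2 over control (horizontal axis) of CASP6 389, CASP8 1512 and CASP8 1452 under each processing (rows), filled where the p of that processing is under 0.05. In the row for the mean over the probes of a gene, CASP8 is the mean of both probes, drawn as CASP8 1512. CASP6 and CASP8 1512 stay left of 0 in every row, CASP8 1452 stays near 0, and no symbol is filled when an array is left out.

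Of 57 other genes of caspase activation, 50 had a probe and 37 a tested one, each read by its brightest tested probe. The adjusted threshold (limma) was passed by 7 of the 37 (18.9%), 2 higher and 5 lower, beside 17.1% of the 13692 gene names tested. With Agilent's processed signals 10 of the 37 passed (27.0%), beside 15.4% of all probes. With median centring, or without array 1, 3 or 4, 0 of the 37 passed, so each call on a gene of these lists ended there. At most 0.157% of all probes passed in those settings. Without array 2, 8 of the 37 passed (21.6%), beside 16.1% of all probes. In the main processing the median log2 ratio of the 37 was -0.044. Among the 4 other caspases tested, 0 passed.

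Of the 5 inhibitor of apoptosis proteins and partners tested, 0 passed. BIRC2, a relative of XIAP, had a mean of -0.063 ± 0.10 (limma adjusted p = 0.393). BIRC3, its close relative, had ratios of -0.10, -0.12, -0.099 and -0.31 (mean -0.16 ± 0.10; limma adjusted p = 0.0709), lower in treated cells on all 4 arrays. Of 3 genes of mitochondrial release, 0 passed: CYCS, the cytochrome c that APAF1 binds, had a mean of -0.12 ± 0.12 (limma adjusted p = 0.152). The FAS receptor's probe did not pass the filter for testing, and no probe was annotated as FADD, its adaptor. The 3 death receptor and ligand genes tested had means of 0.11 to 0.12, and 0 passed by the brightest probe, although 1 of 3 tested TNFRSF25 probes did.

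Of 8 adaptors and platform proteins, AVEN fell and BFAR rose, 2 of 8 beside the 17.1% of gene names. By another than its brightest probe, APIP had 1 of 3 probes past the threshold. AVEN, which binds APAF1 and hinders caspase activation, fell on all arrays, with ratios of -0.19, -0.14, -0.31 and -0.20 (mean -0.21 ± 0.07; limma adjusted p = 0.0278), and 3 of its 4 probes passed. BFAR, an inhibitor of apoptosis that can bind caspase-8, rose with ratios of 0.16, 0.15, 0.18 and 0.16 (mean 0.16 ± 0.01; limma adjusted p = 0.0334).

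Of 14 proteins known to be cut by caspases, 4 fell and 1 rose in transcript, 5 of 14 beside the 17.1% of gene names. The kinase ROCK1 fell by 0.18 ± 0.08 on the log2 scale (limma adjusted p = 0.0427, 3 of 5 probes) and the kinase PKN2 by 0.23 ± 0.12 (0.0375, 2 of 2 probes). ACIN1, a nuclear protein of chromatin condensation, fell by 0.22 ± 0.13 (0.0468), and the filament protein VIM by 0.21 ± 0.10 (0.0363, 1 of 3 probes). SPTAN1, the alpha chain of non-erythroid spectrin, rose by 0.40 ± 0.06 (0.0119), with ratios from 0.36 to 0.48.

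**Figure D5:**
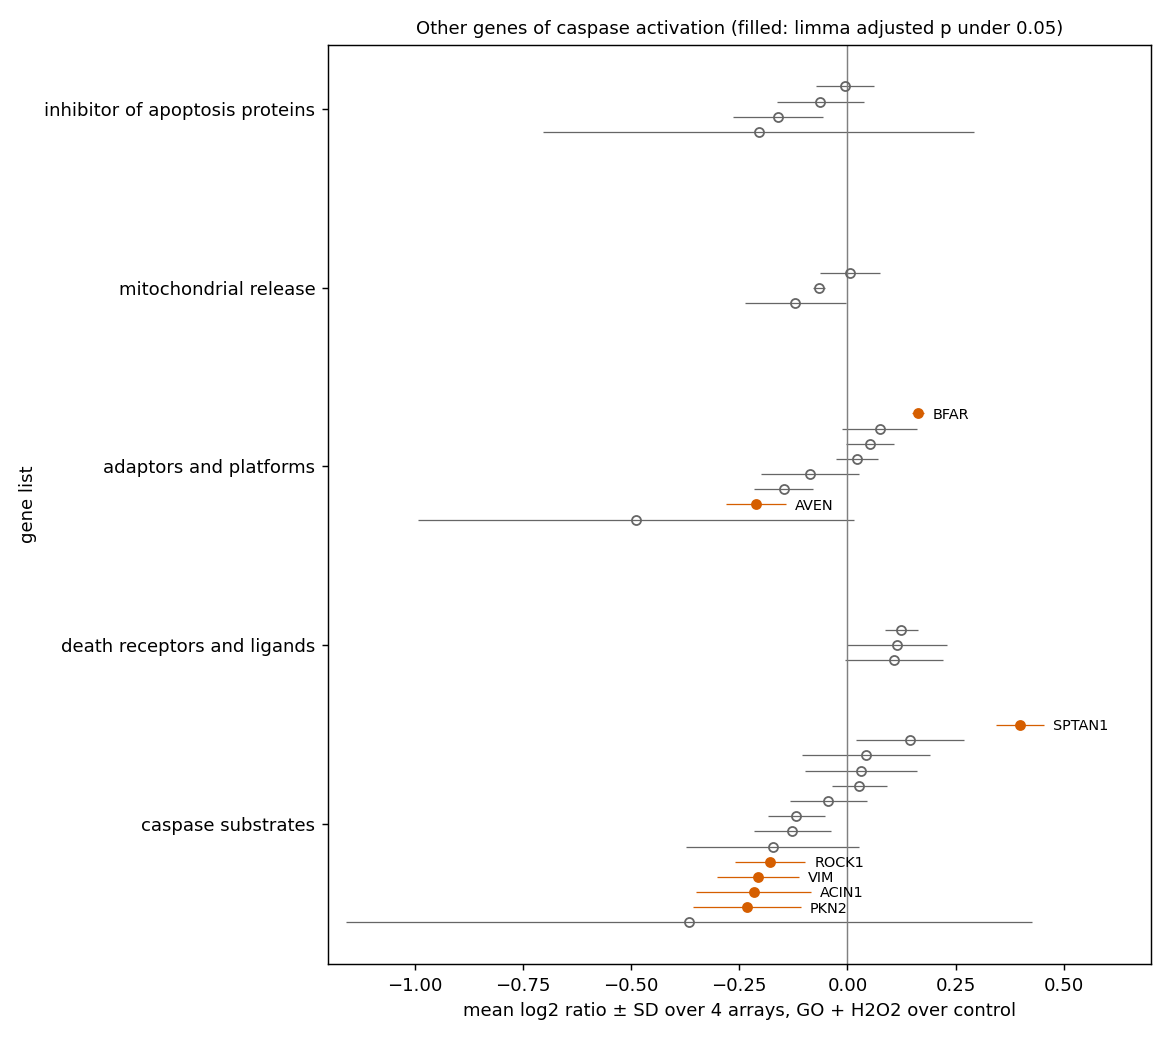
Mean log2 ratio ± SD over 4 arrays (horizontal axis) of the tested genes in 5 lists around caspase activation (rows), 1 point per gene. Filled and named points passed the limma test (adjusted p under 0.05): BFAR and SPTAN1 lie above 0 and the 5 others below; XAF1, at 1.25 ± 1.28, is not drawn.

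The cells carried markers of the labelled tissue, muscle, and also some of fibroblasts and immune cells, and part of these differed between treated and control cells. Of 12 muscle markers, 9 had a probe and all 9 were tested. By the brightest probe all 9 were above 0, although only 1 of 2 tested MYOD1 probes was. Of the 9, 6 rose (MYOG, MYF6, NCAM1 by 1 of its 3 probes, MYH3, TNNT3 and CKM), beside the 17.1% of gene names. The median log2 ratio of the 9 was 0.21. With median centring, or without array 1, 3 or 4, 0 of these 9 passed, and 8 or 9 of them stayed above 0. At most 0.157% of all probes passed in those settings. Without array 2, 5 of the 9 passed, beside 16.1% of all probes. The summed signal of the 9 markers was 104455 to 151281 in treated and 79694 to 125638 in control cells. Of 6 fibroblast markers tested, THY1 rose and LUM fell, with summed signals of 380466 to 420098 and 282847 to 401549. CD14 fell among 2 tested immune markers, CD14 and CD68 (summed signals of 3030 to 4293 and 3317 to 5131). The probes of the immune markers CD3E and AIF1 and of the fibroblast marker PDGFRA did not pass the filter for testing. No adipocyte or endothelial marker passed the filter for testing (0 of 4 and 0 of 5 with a probe). PAX7, the marker of quiescent satellite cells, had no probe under that symbol. The part of these markers in the CASP6 and CASP8 values was not tested.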

How the data were processed

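The deposited files hold red and green spot intensities of 4 two-channel arrays of 1 slide, quantified by the authors in Agilent Feature Extraction 10.10.1.1 with EquCab1 annotation (per the file headers). Log10 ratios of background-subtracted, dye-normalised red over green were deposited too, and the series matrix repeated them (largest difference 0, column medians 0). Between 54.9% and 61.4% of 43803 gene spots per channel were well above background, 7 to 16 per array carried an outlier mark and 0 were saturated.

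Mean intensities were corrected with normexp (offset 50, which shrinks the ratios of dim probes) and loess within arrays, control spots having weight 0. Outlier spots were left out and spots averaged per probe. A probe was tested when well above background on all 4 arrays in red or in green (24230 probes). Log2 ratios were tested against 0 with limma 3.58.1 (R 4.3.3; two-sided), and p-values were adjusted over all of these by Benjamini-Hochberg, at a threshold of 0.05. Intervals are limma's, at 95%. The code was checked on simulated data. A gene of the other lists was read by its brightest tested probe (CASP10 and CASP12 were matched by description), and each gene of these lists past the threshold was named. A fixed set of genes was to be named in any case, of which BIRC2, BIRC3, CYCS, FADD and FAS are given and others are not reported here. Alternatives changed the background correction, normalisation, filter, block, test and probe summary, or left out 1 array. The members and lists were chosen with earlier results of these data known. Signals do not compare levels between probes, and the number of arrays limits precision.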

Additional observations from a re-analysis of the deposited data

Results flagged for a closer look

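Among 28 sets of 4 array values screened for a value far from the others, 1 stood out. BIRC3, a relative of XIAP, had a log2 ratio of -0.31 on array 4 against -0.12 to -0.099 on the others, a gap of 0.901 of the range and above Dixon's limit. Chance alone marks about 1 in 20 such sets.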

How the results depend on the processing

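Of 4137 probes called on the whole array, 12 were called with median centring in place of loess, 594 with no replicate block, 6930 by the methods' t-test unadjusted and 5 after Benjamini-Hochberg, and 2383 of 13692 gene names with the mean over a gene's probes; leaving out 1 array gave 0 to 3899. The total of member probes called was 2 in the main processing. It was 1 with no background correction, with a running median, with a correction for row and column, and with the mean over probes. It was 0 with median centring, with no replicate block and by the methods' t-test after Benjamini-Hochberg. That test unadjusted called 3, which adds CASP9 1275. Leaving out 1 array gave 0 each time, with smallest member adjusted p (limma) of 0.105, 0.0528, 0.0687 and 0.108 without arrays 1 to 4. The total of other genes called was 7 in the main processing, 0 with median centring and 1 with no replicate block. It was 11 by the methods' t-test unadjusted and 0 after Benjamini-Hochberg, 10 with Agilent's processed signals, and 0 to 8 without 1 array. With no replicate block the channels were compared as separate samples after scaling between arrays. CASP6 had an adjusted p of 0.783 with median centring and 0.0978 with no replicate block; CASP8 1512 had 0.0571 with no background correction, 0.0558 with a running median and 0.114 with row and column. The causes were not tested. CASP2 and CFLAR, tested without the filter, had adjusted p of 0.388 and 0.462. Dim signal limits both.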

Other observations

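XAF1, an interferon-inducible partner of XIAP, was singled out after its values were seen: its log2 ratios were 3.00, 0.17, 1.40 and 0.44 on the 4 arrays, above 0 on each, with a mean of 1.25 ± 1.28 (SD, n = 4) that did not pass the test (limma adjusted p = 0.0872). The spread between arrays was as large as the mean. PEA15, which binds FADD and caspase-8, had ratios of -1.12, 0.11, -0.47 and -0.48 by its brightest probe (mean -0.49 ± 0.50; limma adjusted p = 0.0933), and 0 of its 10 probes passed. BIRC5, an inhibitor of apoptosis protein made in dividing cells, had ratios of -0.19, 0.49, -0.61 and -0.51 (limma adjusted p = 0.418), and LMNB1, a nuclear lamin, had -1.52, 0.29, -0.089 and -0.15 (limma adjusted p = 0.358). On array 2 alone, PEA15, BIRC5 and LMNB1 were above 0. These genes were also chosen after their values were seen.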
